A study of Mus musculus with 9 samples.

Results

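The inflammasome and interleukin 1 genes described here are Nlrp3, Pycard, Casp1, Casp4, Gsdmd, Il1a, Il1b, Il18, Il1rn and Il1r1. They were chosen by symbol, and each of the 10 matched 1 row of a table of 22337 genes. Their RNA was measured by RNA-seq in mouse retinas at postnatal day (P) 28, in 3 groups of 3 libraries. The WT group was C57 BL/6J mice that received no injection. The NS group was rd10 mice, which carry the Pde6b rd10 mutation and lose their rod photoreceptors, given normal saline. The MSC-EVs group was rd10 mice given extracellular vesicles collected from human umbilical cord mesenchymal stem cells. The injections of both rd10 groups, 1 μL for each of the eyes, fell on P14 and P21, and rd10 littermates were divided between them. The sources describe the route both as into the vitreous and as intravenous. WT mice differed from NS mice in genotype, injection and supplier, so these cannot be told apart. Nothing in the labels says whether a library came from 1 animal or from several, so the p-values measure the spread between these libraries, which may be technical.

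An inflammasome is a protein platform that forms in the cytosol when a sensor such as NLRP3 meets a danger signal. The sensor recruits the adaptor ASC, encoded by Pycard, which gathers and activates caspase-1. Caspase-1 cuts the precursors of IL-1β and IL-18 into their active forms and cuts gasdermin D, whose freed end makes pores in the cell membrane. Caspase-4, known in the mouse as caspase-11, senses bacterial lipopolysaccharide in the cytosol and cuts gasdermin D directly. IL-1α and IL-1β both signal through the receptor encoded by Il1r1, and the product of Il1rn occupies that receptor without signalling. In nervous tissue Nlrp3 and Il1b are known mainly from microglia and macrophages, and their messages are made after NF-kB signalling. RNA levels do not measure the cutting or release of these proteins.

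In GENCODE M21 (GRCm38) all 10 are protein-coding genes, and several share a chromosome. Il1a (chr2:129299610-129309972, minus strand), Il1b (chr2:129364570-129371139, minus strand) and Il1rn (chr2:24336853-24351494, plus strand) lie on chromosome 2. Casp1 (chr9:5298517-5307265), Casp4 (chr9:5308828-5336783) and Il18 (chr9:50554827-50581840) lie on the plus strand of chromosome 9. Nlrp3 is at chr11:59541568-59566956, Pycard at chr7:127989708-127993867 on the minus strand, Gsdmd at chr15:75862327-75867408 and Il1r1 at chr1:40225080-40317257. Il1b overlaps the antisense gene Il1bos and Il18 overlaps Bco2 and Tex12 on the opposite strand, but their transcripts share no 50-base stretch with those genes.

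Since these genes were higher together in rd10 retinas, their promoters were read from RefSeq (GRCm38.p6), which gave 14 promoters for 9 of the 10 genes, each 250 bases before and 50 bases after a start site. The NF-kB motif (GGGA, any 4 bases, CC) was searched on both strands and was in 4 of the 14 promoters, from Nlrp3, Casp4 (2 overlapping promoters with the same site) and Il1rn, against 20.7% of all 32851 promoters. The AP-1 motif TGANTCA was in 2, those of Il1a and Il1rn, against 7.81% of all. The PU.1 motif GAGGAA was in 4, from Il1a, Pycard, Casp1 and Nlrp3, against 28.3%, and the IRF motif (GAAA, any 2 bases, GAAA) was in none, against 3.44%. The 4 stretches below are the ones that hold an NF-kB or AP-1 match upstream of the start, with the match in capitals, and are printed 5′ to 3′ on the gene's own strand.
Nlrp3, chr11:59541343-59541432, plus strand: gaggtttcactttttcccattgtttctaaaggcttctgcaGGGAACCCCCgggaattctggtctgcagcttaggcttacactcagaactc
Casp4, chr9:5308717-5308806, plus strand: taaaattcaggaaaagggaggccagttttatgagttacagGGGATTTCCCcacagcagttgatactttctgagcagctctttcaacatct
Il1rn, chr2:24336679-24336855, plus strand: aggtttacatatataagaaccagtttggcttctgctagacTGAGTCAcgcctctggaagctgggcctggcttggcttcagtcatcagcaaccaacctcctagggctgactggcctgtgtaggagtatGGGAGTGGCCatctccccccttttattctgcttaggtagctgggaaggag
Il1a, chr2:129309973-129310024, minus strand: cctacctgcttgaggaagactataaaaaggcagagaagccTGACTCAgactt
The matches begin 186 bases before the start site in Nlrp3, 92 in Casp4, 141 (AP-1) and 54 (NF-kB) in Il1rn, and 12 in Il1a. Such a match describes the letters of the window and does not show that a factor binds there.

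The libraries held 19491717 to 62532343 counts, and MSC-EVs replicate 3 was the deepest. Each of the 8 rod markers was lower in NS than in WT, with a summed level of 72086 to 77601 CPM (counts scaled to library size) in WT, 14313 to 20599 in NS and 14996 to 21197 in MSC-EVs. MSC-EVs replicates 1 and 2 stood apart from the other libraries in 4 Y-linked genes, which summed to 183 and 188 CPM there and to 0.236 to 0.501 CPM in the other 7 libraries. The labels give no sex. All WT and NS libraries were among the low ones, so the Y-linked difference is partly confounded with treatment. The values of the 10 genes in MSC-EVs against NS are therefore given below with and without MSC-EVs replicates 1 and 2.

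The inflammasome genes were low in WT retina and higher in every NS library. Nlrp3, the sensor, held 0, 1 and 1 counts in the WT libraries, 14, 10 and 8 in NS, and 13, 19 and 34 in MSC-EVs. Scaled to library size with TMM factors, this was 0, 0.0448 and 0.0501 CPM in WT, 0.473, 0.489 and 0.366 in NS, and 0.542, 0.81 and 0.531 in MSC-EVs. No WT library reached any rd10 library. The ratio of summed counts per library size was 14.4 for NS against WT (95% exact interval 3.67 to 124, counting error only). Nlrp3 failed the filter on low counts in NS against WT and was not tested in the main fit. Without a filter it passed, with an adjusted p of 0.00129 in edgeR's quasi-likelihood test.

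Pycard, the adaptor, was the one inflammasome gene here with at least 10 counts in every WT library. It measured 0.987, 0.806 and 0.651 CPM in WT, 2.94, 3.33 and 2.06 in NS, and 2.79, 2.34 and 1.75 in MSC-EVs. Its WT and NS libraries did not overlap, and it rose by 1.76 on the log2 scale (SE 0.28, adjusted p = 0.000196). In the annotation, 11.7% of the 50-base stretches of its transcripts are shared with Gm45205 on the opposite strand, and without strand information those reads cannot be told apart.

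Casp1, which encodes the protease that matures IL-1β, showed a larger difference. It held 3, 8 and 2 counts in WT, which is 0.135, 0.358 and 0.1 CPM. In NS it measured 3.24, 4.06 and 2.15 CPM, and in MSC-EVs 4.55, 3.58 and 3.08 CPM. The lowest rd10 library was above the highest WT library, and Casp1 was 3.93 higher in NS than in WT on the log2 scale (SE 0.42, adjusted p = 7.66e-06). Casp4 lies next to Casp1 on chromosome 9 and the transcripts of Casp1 share no 50-base stretch with another gene. Casp4 was at 0, 0 and 0.2 CPM in WT, 0.574, 0.685 and 0.778 in NS, and 1.29, 1.11 and 0.657 in MSC-EVs. It too did not overlap between WT and NS (log2 fold change 3.32, SE 0.76, adjusted p = 0.00227). WT replicate 3 held all 4 WT counts of Casp4, and without it the fitted value was 6.98, which against 0 counts depends on the prior count. Without WT replicate 2, Casp1 gave 4.67.

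Gsdmd, the pore former, was uneven among the NS libraries. It measured 0.314, 0.269 and 0.351 CPM in WT, 2.53, 1.52 and 0.915 in NS, and 2.5, 2.68 and 1.36 in MSC-EVs. NS replicate 3 was the lowest of the rd10 libraries and still above each WT library. The log2 fold change of NS against WT was 2.43 (SE 0.44, adjusted p = 0.000486).

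**Figure D1:**
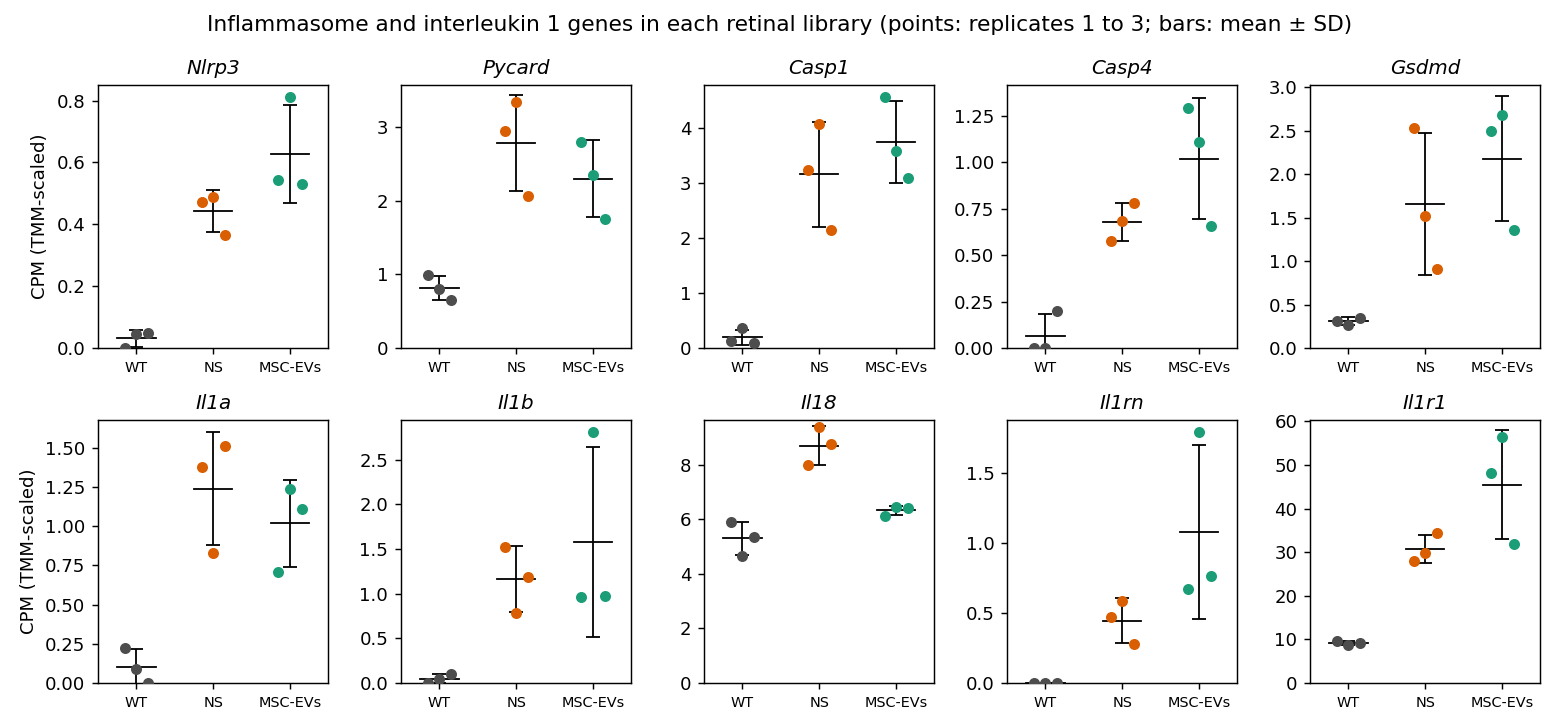
Levels of the 10 genes in CPM (linear axes that start at 0 and differ between panels) in the 9 retinal libraries, with WT in grey, NS-treated rd10 in orange and MSC-EVs-treated rd10 in green. Points are replicates 1 to 3 from left to right and bars are mean ± SD (n = 3), and in each panel the 3 WT points lie below the 3 NS points.

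The ligands Il1a and Il1b were also higher in every rd10 library than in any WT library. Il1a, which encodes the alarmin IL-1α, held 5, 2 and 0 counts in WT, or 0.224, 0.0895 and 0 CPM. It measured 1.38, 0.831 and 1.51 CPM in NS and 0.709, 1.24 and 1.11 CPM in MSC-EVs. NS was 3.47 higher than WT on the log2 scale (SE 0.58, adjusted p = 0.000256), and 4.58 higher without WT replicate 1, which held 5 of the 7 WT counts. In the annotation, 9.1% of the 50-base stretches of Il1a are shared with Gm14023 on the opposite strand. Il1b held 0, 1 and 2 counts in WT, 45, 16 and 26 in NS, and 23, 66 and 62 in MSC-EVs. Its CPM was 1.52, 0.783 and 1.19 in NS and 0.959, 2.81 and 0.969 in MSC-EVs, so MSC-EVs replicate 2 was the highest of all libraries. NS exceeded WT by a ratio of 26 (95% exact interval 8.62 to 129, counting error only). The log2 fold change fitted with edgeR was 4.51 (adjusted p = 6.09e-05), and 5.42 without WT replicate 3, which held 2 of the 3 WT counts.

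Il18 was the exception among the ligands, since WT retina already expressed it. It measured 5.88, 4.65 and 5.36 CPM in WT, 7.97, 9.39 and 8.74 in NS, and 6.13, 6.43 and 6.42 in MSC-EVs. The 3 groups did not overlap, with MSC-EVs between WT and NS. Il18 rose by 0.71 on the log2 scale in NS against WT (SE 0.14, adjusted p = 0.000788), the smallest difference among the 8 genes tested and the one below 2-fold.

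Il1rn, the receptor antagonist, had no count in any WT library. It held 14, 12 and 6 counts in NS and 16, 42 and 49 in MSC-EVs. Against a floor of 3 counts over the 3 WT libraries, the summed level was at least 9.58-fold higher in NS and at least 20.7-fold higher in MSC-EVs. Il1rn failed the filter in NS against WT, and without a filter its adjusted p was 0.00037. Il1r1, the signalling receptor, was by contrast well measured in every library. It was at 9.6, 8.73 and 9.07 CPM in WT, 28, 29.8 and 34.4 in NS, and 48.1, 56.4 and 31.9 in MSC-EVs. It rose by 1.75 on the log2 scale in NS against WT (SE 0.10, adjusted p = 3.02e-08), and MSC-EVs replicate 3 lay inside the NS range while replicates 1 and 2 lay above it.

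Of the 10 genes, 8 were tested in NS against WT and 8 were higher, 7 of them by at least 2-fold, while 31.2% of the 14644 genes tested were higher and 9.16% were higher by at least 2-fold. All 10 genes had every NS library above every WT library, which held for 33.6% of the genes tested. Casp1, Casp4, Gsdmd, Il1a and Il1b reached the filter through the NS libraries alone, so their count is a description. Pycard, Il18 and Il1r1 had at least 10 counts in each of the 6 libraries, and these 3 passed. In a bulk retina, more cells of a type, a larger share of them where rods are fewer, and more RNA per cell cannot be told apart.

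Markers of microglia and macrophages moved with these genes. Each of 14 such markers was higher in NS than in WT, by a median of 3.41 on the log2 scale. Their summed level was 81.6 to 88 CPM in WT, 484 to 595 in NS and 395 to 691 in MSC-EVs, and none of the 14 was at or below 3 counts over a group. C1qc and Csf1r were among the most abundant of them. Of 10 monocyte and neutrophil markers, 3 could be tested and were higher in NS, namely Ly6c2, Ccr2 and Plac8. That list summed to 0 to 0.269 CPM in WT, 4.48 to 13.9 in NS and 2.52 to 14.4 in MSC-EVs. Of the other 7, Mpo, Ly6g, Camp and Elane stayed at or below 3 counts over the NS group, while S100a8, S100a9 and Retnlg held 13, 16 and 6 counts there against 0, 0 and 1 in WT. Markers of other cell types moved as well. All 6 endothelial and pericyte markers were higher in NS, with a sum of 300 to 315 CPM in WT, 518 to 526 in NS and 458 to 558 in MSC-EVs, as were 7 of 8 Müller glia markers, with a sum of 3551 to 3807, 4518 to 4989 and 3883 to 4279. None of these 14 markers was at or below 3 counts over a group. The Müller glia marker that did not pass was Glul, the most abundant of that list (log2 fold change -0.03, adjusted p = 0.853 with edgeR). Lcn2 rose the most in that list (5.35) and is also one of the IL-1-inducible genes below. Of 9 bipolar, amacrine and ganglion markers, 7 were higher in NS, by at most 0.64 on the log2 scale, and 2 did not pass. Their sum was 1955 to 2180 CPM in WT, 2226 to 2595 in NS and 2082 to 2443 in MSC-EVs. Of 4 fibroblast and meningeal markers tested, 2 were higher in NS and 2 did not pass. That list summed to 7.99 to 9.22 CPM in WT, 19.8 to 30.3 in NS and 16.9 to 30.9 in MSC-EVs. Of 6 retinal pigment epithelium markers, 2 were higher and 4 did not pass. Their sum overlapped between the groups, at 53.6 to 97.8 CPM in WT, 51.2 to 212 in NS and 66.4 to 202 in MSC-EVs. The part of these cells in the levels of the inflammasome and interleukin 1 genes was not tested.

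Set against the summed microglia and macrophage markers of the same library, the 10 genes divided. Per 1000 CPM of those markers, Il18 was at 62.2 ± 4.9 CPM in WT, 16.1 ± 2.44 in NS and 12 ± 3.73 in MSC-EVs (mean ± SD, n = 3). Il1r1 was at 107 ± 1.51 in WT, 57.4 ± 12.4 in NS and 81.5 ± 0.677 in MSC-EVs, and Pycard at 9.57 ± 1.81, 5.06 ± 0.883 and 4.2 ± 0.721. For these 3 genes the WT libraries were above the NS libraries on this scale. Casp1 went the other way, at 2.36 ± 1.76, 5.74 ± 1.47 and 6.92 ± 1.5. Its NS libraries lay above its WT libraries by little, the nearest being 4.44 (NS replicate 3) and 4.39 (WT replicate 2, 8 counts). Il1b was at 0.574 ± 0.587, 2.14 ± 0.632 and 2.72 ± 1.24, with 3 counts over the WT group. Nlrp3 and Il1rn were also higher in each NS library, but held 2 and 0 counts over WT. Gsdmd was at 3.65 ± 0.415 in WT and 2.96 ± 1.2 in NS, where the libraries overlapped, as they did for Il1a and Casp4. Exact permutation of 3 against 3 libraries cannot give a p below 0.10, and these ratios were not tested.

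**Figure D2:**
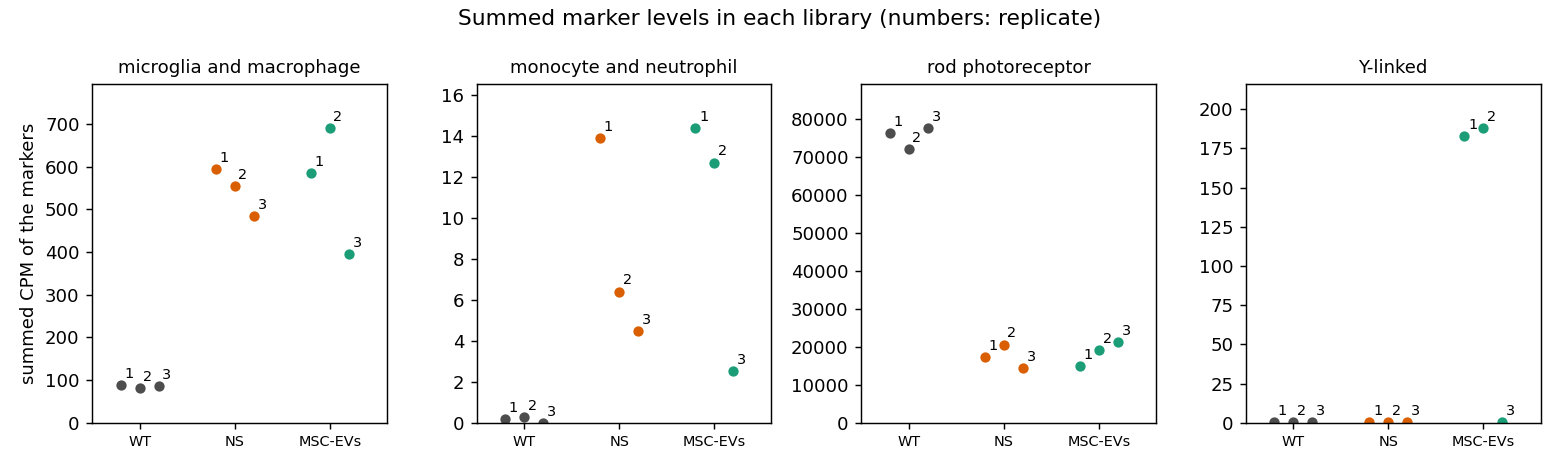
Summed CPM of 4 marker lists in each library (linear axes from 0, numbers are replicates). The microglia and macrophage sum is 81.6 to 88 in WT and 395 to 691 in rd10, the rod sum falls from at least 72086 in WT to at most 21197 in rd10, and the Y-linked sum is 183 and 188 in MSC-EVs replicates 1 and 2.

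Levels can be compared between genes only per length, as FPKM (fragments scaled to transcript length and library depth). In WT, Il18 was highest at 5.9 ± 0.782 FPKM and Il1r1 next at 1.74 ± 0.0777 (mean ± SD, n = 3), with no overlap between them or with Pycard at 0.3 ± 0.209. The other 7 lay at 0.16 FPKM or less on average, and their neighbours overlapped. In NS the order was Il18 (11 ± 1.26), Il1r1 (6.64 ± 0.77), Casp1 (2.16 ± 0.636), Pycard (1.91 ± 1.04), Gsdmd (1.02 ± 0.544), Il1b (0.897 ± 0.276), Il1a (0.66 ± 0.195), Casp4 (0.507 ± 0.0603), Il1rn (0.283 ± 0.123) and Nlrp3 (0.12 ± 0.01). The neighbours from Casp1 down to Casp4 overlapped, and the others in that order did not. In MSC-EVs, Il1r1 (9.7 ± 2.73) and Il18 (7.95 ± 0.315) overlapped, and Nlrp3 was again the lowest at 0.183 ± 0.0379.

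The next comparison asks how MSC-EVs changed these genes within rd10. None of the 10 passed in MSC-EVs against NS with edgeR, where 1.16% of the 14765 genes tested passed. At an unadjusted p under 0.05 there were 3, namely Il18, Il1rn and Il1r1. DESeq2, which gave an adjusted p for 3 of them, called 1, Il1r1 (adjusted p = 0.0267), and limma on log2 FPKM called none.

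Il18 was lower in each MSC-EVs library than in any NS library. The log2 fold change was -0.45 (95% interval -0.75 to -0.15, adjusted p = 0.111). Leaving out MSC-EVs replicates 1 and 2 gave -0.43, with an adjusted p of 0.272. Il1rn was higher in each MSC-EVs library, at 0.667, 1.79 and 0.766 CPM against 0.473, 0.587 and 0.274 in NS. Its log2 fold change was 1.23 (95% interval 0.15 to 2.31, adjusted p = 0.196), and it was 0.70 without MSC-EVs replicate 2 and 0.78 without replicates 1 and 2. Nlrp3 did not overlap either, with 0.47 on the log2 scale (95% interval -0.37 to 1.32, adjusted p = 0.52), and 0.26 without replicates 1 and 2. Libraries that do not overlap, in either direction, occurred in 3 of the 10 genes and in 26.2% of all genes tested.

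Il1r1 shows how much rests on single libraries. Its log2 fold change was 0.56 (95% interval 0.06 to 1.06, adjusted p = 0.206) over all 6 libraries. Without MSC-EVs replicate 3 it was 0.77 and passed (adjusted p = 0.0235), and without replicates 1 and 2 it was 0.055 (adjusted p = 0.863). With the Y-linked sum as a covariate it was 0.058. The 2 libraries with high Il1r1 are those with the Y-linked reads, and they also held more of the microglia and macrophage markers, 585 and 691 CPM against 395 in replicate 3. The part of either in the difference was not tested.

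For the other 6 genes the interval of the difference spanned 0. Casp4 gave 0.55 (95% interval -0.27 to 1.37), Il1b 0.39 (-0.69 to 1.46), Gsdmd 0.35 (-0.55 to 1.25) and Casp1 0.24 (-0.35 to 0.83). Pycard gave -0.29 (-0.89 to 0.31) and Il1a -0.28 (-1.03 to 0.47). Missing the threshold does not show that these genes were alike in the 2 groups, and the values inside each interval remain possible. The value of Il1b turned to -0.28 without MSC-EVs replicate 2. Without replicates 1 and 2, Casp1, Casp4, Gsdmd and Il1b were all fitted below 0, at -0.030, -0.036, -0.31 and -0.28, while Pycard gave -0.66 and Il1a -0.17. In 6 of the 10 genes, MSC-EVs replicate 3 was below both other MSC-EVs libraries, and for Nlrp3 and Casp4 this held in CPM but not in FPKM. For Casp4 in CPM, replicate 3 lay within the NS range, while in FPKM the 3 MSC-EVs libraries (0.95, 0.78 and 0.89) all lay above NS (0.45, 0.5 and 0.57).

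**Figure D3:**
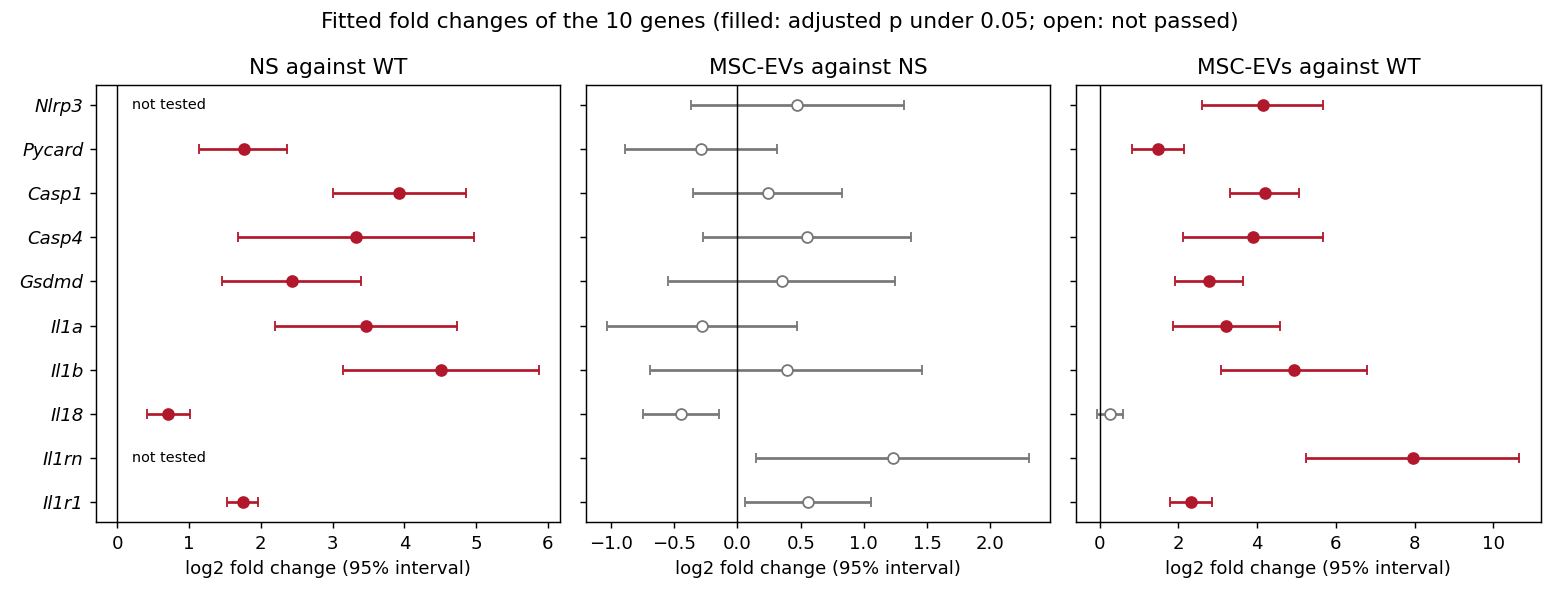
Fitted log2 fold changes with 95% intervals for the 10 genes in the 3 comparisons (edgeR, 6 libraries each, axes differ between panels). Filled points passed at an adjusted p under 0.05, open points did not, and Nlrp3 and Il1rn were not tested in NS against WT. In MSC-EVs against NS all 10 points are open.

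Against WT, the MSC-EVs retinas stayed high. Of the 10 genes, 9 were higher, each by at least 2-fold, while 28.3% of the 14623 genes tested were higher and 9% were higher by at least 2-fold. Every MSC-EVs library lay above every WT library in all 10 genes, and in 31.9% of genes tested. Il18 was the one that did not pass, at 0.26 on the log2 scale (95% interval -0.06 to 0.59, adjusted p = 0.153), although limma on log2(FPKM + 1) gave 0.38 with an adjusted p of 0.0103. The median of the 10 fitted values was 3.55 and stayed 3.55 with Il1rn at its lower bound, beside 0.00 for all genes tested. Since Pycard, Il18 and Il1r1 alone had at least 10 counts in every WT library, the count and the median are a description. NS against WT and MSC-EVs against WT share the WT libraries. The Y-linked reads also set MSC-EVs replicates 1 and 2 apart from WT. With the Y-linked sum as a covariate, 9 of the 10 genes passed, and 6007 genes in all passed against 8117 without it. Casp1 was 4.19 higher than WT on the log2 scale (SE 0.39). Nlrp3 showed a ratio of 19.1 (95% exact interval 5.09 to 161) and Il1b a ratio of 29.2 (9.8 to 143). Single WT libraries moved the fitted values here too. Without WT replicate 2 Casp1 was 4.93, without replicate 1 Il1a went from 3.21 to 4.33, and without replicate 3 Casp4 went from 3.90 to 7.96 and Il1b from 4.93 to 5.88. Casp4 was then fitted against 0 WT counts, so its 7.96 depends on the prior count. Il1b was 4.26 without MSC-EVs replicate 2, and Gsdmd went from 2.77 to 2.12 without MSC-EVs replicates 1 and 2.

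The rest of the pathway was followed in 7 lists of 70 genes, of which 66 were in the table and 52 could be tested in NS against WT. Of these, 35 were higher, 5 were lower and 12 did not pass, where 31.2% of all genes tested were higher and 30.1% lower. In 13 of the 52, a WT library held fewer than 10 counts, and such genes could reach the filter through NS alone, so the counts are a description. Among the 39 others, 24 were higher and 5 lower. Over all 52 genes, those 13 included, the median log2 fold change was 0.90, beside 0.01 over all genes tested. In MSC-EVs against NS none of 55 passed with edgeR, where 7 had an unadjusted p under 0.05 and DESeq2 called 2, Irak3 and Gbp5.

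Among other sensors, 3 of 5 tested were higher in NS, but 4 of the 5 had a WT library below 10 counts, these 3 included. These were the NAIP genes Naip2 (3.40, SE 0.36), Naip5 (3.14, SE 0.45) and Naip6 (3.94, SE 0.71), which recognise bacterial flagellin and secretion proteins and are close paralogs, so reads may be split between them. Nlrc4, their partner, gave 0.95 and the DNA sensor Aim2 0.49, and neither passed (adjusted p = 0.09 and 0.104). Of 10 genes that license or tune NLRP3, 7 were higher. They included P2rx7, the ATP-gated channel that triggers NLRP3 (2.73, SE 0.30), the guanylate-binding proteins Gbp2 (3.58, SE 0.29) and Gbp5 (2.08, SE 0.19), and Txnip (1.19, SE 0.12). Nek7, the kinase that binds NLRP3, gave 0.08 and did not pass (adjusted p = 0.39).

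Other caspases and pore formers were higher in 5 of 6 cases. Casp12 was up by 2.62 (SE 0.38), Casp8 by 2.27 (SE 0.23) and Ninj1, which ruptures the membrane of dying cells, by 1.41 (SE 0.13). The alarmin Il33 rose from 67.3 to 78.2 CPM in WT to 125 to 143 CPM in NS, a log2 fold change of 0.89 (SE 0.07, adjusted p = 6.31e-07). Il18bp, whose product traps IL-18, went from 7.18 to 7.77 CPM in WT to 13.5 to 15.2 CPM in NS (0.93, SE 0.11, adjusted p = 1.29e-05). The groups did not overlap for either gene.

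Of the other receptors, 4 of 6 tested were higher in NS. The decoy receptor Il1r2 held 3 counts over WT and 53 over NS, a ratio of 15.9 (95% exact interval 5.14 to 79.4). Its log2 fold change fitted with edgeR was 3.86 (adjusted p = 0.000422). Il1rap, the co-receptor that Il1r1 needs to signal, measured 24.8, 24.1 and 26.7 CPM in WT and 34.3, 28.8 and 37.2 in NS (0.41, SE 0.09, adjusted p = 0.00257). In MSC-EVs it measured 56.4, 46.2 and 35.7 CPM, and like Il1r1 it was lowest in replicate 3. Of the 14 genes of the signalling chain, 5 were higher and 4 lower, with a median of -0.04, and these shares are near the 31.2% and 30.1% over all genes tested. The adaptor and IRAK kinases were higher, namely Myd88 (0.63, SE 0.12), Irak1 (0.57, SE 0.08), Irak2 (1.27, SE 0.08), Irak3 (1.56, SE 0.23) and Irak4 (0.72, SE 0.23). Tollip, Tab1, Tab3 and Ikbkg were lower, by 0.18 to 0.55 on the log2 scale. Traf6, the ubiquitin ligase between these kinases and the TAK1 complex, gave -0.07 and did not pass (adjusted p = 0.424).

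Irak3, which encodes the inhibitory kinase of this chain, came nearest to passing in MSC-EVs against NS among the pathway genes. It measured 2.84, 2.84 and 2.7 CPM in NS and 4.67, 5.16 and 4.71 in MSC-EVs. All 3 MSC-EVs libraries were above NS, and the log2 fold change was 0.80 (SE 0.17, adjusted p = 0.0582). It passed with DESeq2 (adjusted p = 0.0182) and with all 9 libraries in 1 fit (adjusted p = 0.0199). These were the only settings that called it. They called 917 and 1026 genes in all, against 172 in the main fit.

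Genes that IL-1 can induce, many of which also answer to TNF or Toll-like receptors, were higher in 9 of 9 cases tested, 8 of them by at least 2-fold. Of the 9, 5 had a WT library below 10 counts and could hardly pass except as higher, and the other 4 were Lcn2, Icam1, Socs3 and Nfkbiz. Lcn2, an iron-binding acute-phase protein that Müller glia also make, was at 5.16 to 6.15 CPM in WT and 134 to 389 in NS (5.35, SE 0.61, adjusted p = 0.00194). The chemokines Ccl2 and Cxcl1 each held 1 count over WT and 124 and 105 over NS, ratios of 111 (95% exact interval 19.6 to 4433) and 94.3 (16.6 to 3759). Socs3, a feedback inhibitor of cytokine signalling, rose by 4.18 (SE 0.12, adjusted p = 2.69e-10) and Icam1, an adhesion molecule, by 3.92 (SE 0.22). Saa3, a serum amyloid, held 1 count over WT and 71 over NS. In MSC-EVs these genes were uneven, as in Ccl2 at 0.626, 5.62 and 0.344 CPM and Socs3 at 55.6, 126 and 41.1 CPM. Replicate 2 was the highest for both genes, as it was for Il1b.

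**Figure D4:**
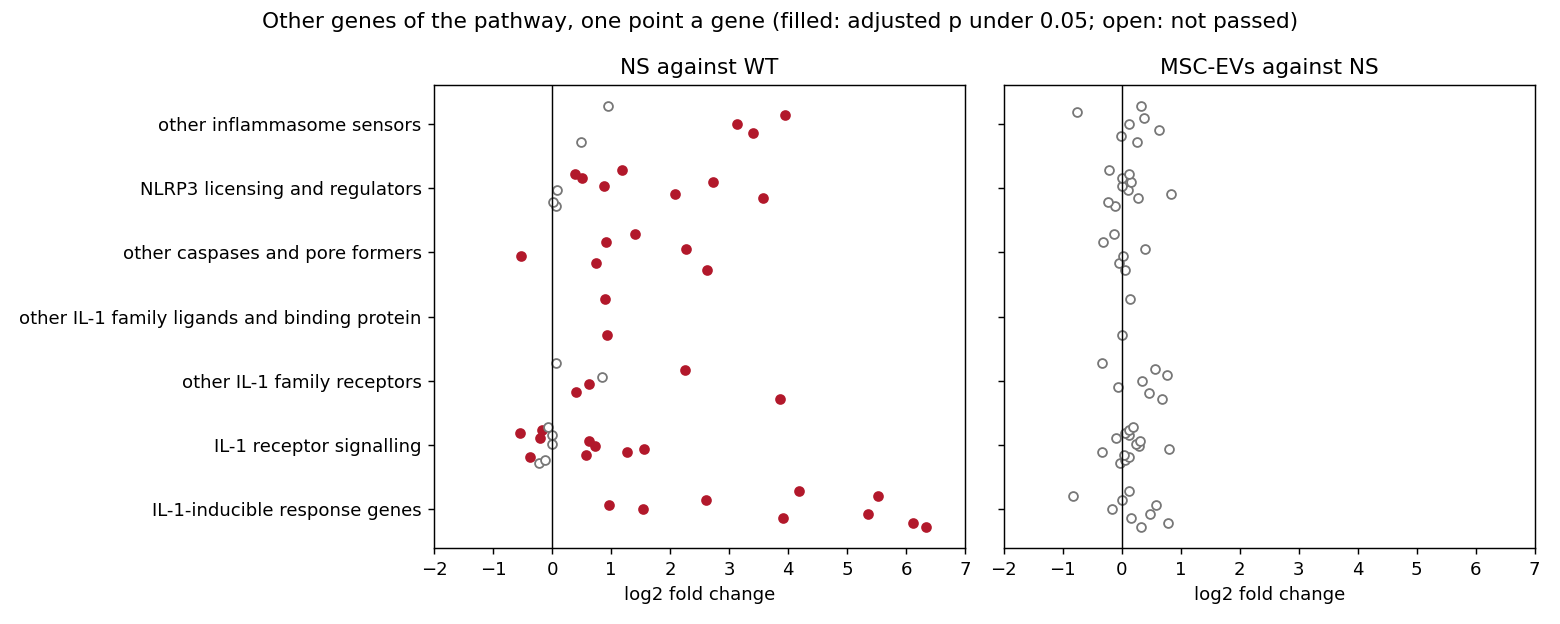
Log2 fold changes of the other pathway genes, 1 point a gene, in 7 lists for NS against WT (left) and MSC-EVs against NS (right), with filled points at an adjusted p under 0.05. On the left 35 of 52 genes are filled and above 0 and 5 filled and below it, and on the right none of 55 is filled.

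The genes whose log2 CPM over the 9 libraries was most like the mean standardized level of the 10 genes were C1qb, H2-D1, Tagln2, H2-K1 and C1qc, with Pearson's r of 0.998 to 0.999 among 14880 genes compared. C1qb and C1qc encode complement C1q chains of microglia, and H2-D1 and H2-K1 encode class I major histocompatibility molecules. C1qb averaged 5.58 CPM in WT, 68.5 in NS and 71.1 in MSC-EVs. The 9 points fall into WT and rd10 libraries, so the coefficient mostly describes that contrast.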

How the data were processed

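The authors deposited a table with an estimated count and an FPKM value per gene for 9 retinal libraries. The deposited estimated counts were not scaled to depth, and the deposited FPKM values were scaled by the authors to length and depth. The submitters' processing notes name fastp, Bowtie2, HISAT2, StringTie 1.3.1 and RSEM without their roles. The build and annotation are not given in the sources used here, nor is strand-specific counting. All value columns were matched to a library by name.

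Estimated counts were rounded, since 9.16% to 11.7% of genes carried decimals, and each pair of groups (6 libraries) was fitted with edgeR 4.0.16 in R 4.3.3 (filterByExpr, TMM, glmQLFit with robust estimation, glmQLFTest). "Passed", "higher" and "lower" mean a Benjamini-Hochberg adjusted p under 0.05 over all genes tested, and 2-fold adds a log2 fold change of 1 or more in size. CPM values use TMM-scaled library sizes. Intervals cover 95%. Folds against WT groups of 1 to 3 counts are ratios of summed counts with exact binomial intervals (scipy 1.17.1), and those against 0 counts use a floor of 3 counts over the group; both cover counting error only. Alternatives used DESeq2 1.42.0, limma 3.58.1 on log2(FPKM + 1) and log2(FPKM + 0.1), other scalings, filters and left-out libraries. The scripts were tested on simulated data. Positions and 50-base stretches came from GENCODE M21 (GRCm38) by identifier.

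The 10 genes, the pathway and marker lists and the promoter motifs were chosen with earlier results of these data known. All 10 are described. Other pathway genes are named where they passed at 2-fold (at most 6 a comparison) or are Irak1, Traf6, Myd88, Irak4, Il1rap, Il18bp or Il33. Naip5, Nlrc4, Aim2, P2rx7, Gbp2, Gbp5, Txnip, Nek7, Casp8, Casp12, Ninj1, Il1r2, Irak2, Irak3, Nfkbiz, Tollip, Tab1, Tab3 and Ikbkg were named after their values were seen. Some list genes are not reported here by name.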

Additional observations from a re-analysis of the deposited data

How the results depend on the processing

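Every member call in NS against WT and MSC-EVs against WT kept its direction and its side of the threshold in each alternative that could test it, except Il18 in MSC-EVs against WT, which passed with limma on log2(FPKM + 1) (0.38) and log2(FPKM + 0.1) (0.43), and Il18 in NS against WT (0.71), which a 2-fold rule drops, leaving 7 members. A minimum of 10 counts in every library left 3 members called in NS against WT and 2 in MSC-EVs against WT, since fewer could be tested. Asking for a 2-fold change as well left 22 pathway genes and 1863 genes in all in NS against WT, 22 and 1784 in MSC-EVs against WT, and 9 genes in all in MSC-EVs against NS.

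In MSC-EVs against NS, DESeq2 called 1 member, 2 pathway genes and 917 genes in all, and the fit of all 9 libraries called 1 pathway gene and 1026 genes. Without MSC-EVs replicates 1 and 2, an alternative chosen after seeing the data in which the lone sample is assumed to vary like NS, 3 pathway genes (Nfkbiz, Socs3 and Irak2, all lower) and 295 genes passed. Leaving out 1 library at a time gave 0 to 1 members, 0 to 1 pathway genes and 0 to 676 genes: 0 without NS replicate 3 or MSC-EVs replicate 1 (1991 and 2052 at an unadjusted p under 0.05), 32 without NS replicate 2 and 676 without MSC-EVs replicate 2. The member was Il1r1 and the pathway genes were Irak2 without MSC-EVs replicate 2 and Gbp5 without replicate 3. The log2 fold change of Il1b ran from -0.28 to 0.67 over those fits.

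Signs turned with the Y-linked covariate in Casp1 (-0.034), Casp4 (-0.037), Gsdmd (-0.25) and Il1b (-0.24), and without MSC-EVs replicates 1 and 2 in Casp1 (-0.030), Casp4 (-0.036), Gsdmd (-0.31) and Il1b (-0.28). The cause was not tested.

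No source says that a replicate number marks a shared litter or day, and the numbers did not meet the rule used for pairing, a correlation over 0.1 in every pair: the correlation of same-numbered deviations was 0.0902, 0.179 and 0.285 between MSC-EVs and NS, where each sample correlated best with its own number, and -0.0718 to 0.0244 between NS and WT. The replicate block moved the calls in MSC-EVs against NS from 172 to 403 genes, with 0 members, and changed no other call of a member. Members with under 10 counts in a library limit what can be seen: Nlrp3, Casp4 and Il1rn rest on 48 counts or fewer over the NS group.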

Other observations

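Within a library, the FPKM of the antagonist Il1rn divided by that of its competing ligands Il1a and Il1b together was 0.132, 0.4 and 0.104 in NS and 0.315, 0.35 and 0.298 in MSC-EVs. The MSC-EVs libraries were close to each other and inside the NS range, and WT held no Il1rn. Il18 divided by Il1b was 169 and 86 in WT replicates 2 and 3, 8.25, 19.6 and 12.5 in NS and 10.5, 3.87 and 10.7 in MSC-EVs, and WT replicate 1 held no Il1b. These ratios were chosen after the values were seen and were not tested.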
